A study of Mus musculus with 4 samples.

Results

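The contractile genes examined here are 50 named genes of the myosin, actin, troponin, tropomyosin, calponin and transgelin families, with desmin, titin, calsequestrins, muscle creatine kinase, the muscle acetylcholine receptor subunit Chrna1 and the myogenic factors Myog and Myod1. Every probe that was not a control and carried one of these gene names was taken, which gave 80 probes out of 55681 on the array, where 34844 gene names stand. Each of the 50 genes had at least 1 probe. The members were chosen by name with the BMP2 and LOXL2 differences of these same arrays already known, so those values are a description and the counts support nothing about the list. Where a gene has several probes, they are numbered in the order of their array names.

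Expression was measured in mouse primary osteoblasts, bone-forming cells taken directly from the animal and grown in serum. There were 4 groups of 72 h with 1 array each. The cells received no added protein, LOXL2 at 4 µg/ml, BMP2 at 200 ng/ml, or both proteins at these doses. The labels call the cells pre-osteoblasts in the groups without BMP2 and osteoblasts in the groups with it, name no strain, age or genotype, and leave unstated whether each culture was its own preparation. BMP2, a bone morphogenetic protein, induces cartilage and bone. LOXL2 belongs to the lysyl oxidases, enzymes that cells secrete to cross-link collagen. The stated question was which genes regulate osteoblast differentiation under BMP2.

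Contractile force in cells comes from myosin motors that pull on actin filaments. Striated muscle of the skeleton and heart packs them into sarcomeres, which troponin and tropomyosin switch on with calcium, and each muscle type uses its own isoforms of these proteins. Smooth muscle and activated fibroblasts carry smooth muscle actin, calponin and transgelin, whose genes are well-known targets of serum response factor and its cofactors of the myocardin family, while non-muscle myosins and tropomyosins serve the cytoskeleton of most cells.

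The 4 arrays were alike in signal. Spots well above background made up 60.4% to 62.2% of the spots that were not controls, and no spot was saturated. Probes printed on 10 spots had a median SD of 0.0645 to 0.0673 (log2) within an array, which does not cover the spread between cultures. The osteoblast markers Runx2, Sp7, Alpl, Col1a1, Col1a2, Ibsp and Spp1 were well above background on all 4 arrays. With 1 array per treatment there is no biological replicate, which limits the precision throughout.

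Values are scaled intensities, in scanner units after each array was brought to a common 75th percentile, and they compare treatments for a probe but not one probe with another. Fitted effects are log2 changes ± SE from an additive model of BMP2 and LOXL2 over the 4 arrays, so each compares the 2 arrays that had a protein with the 2 that lacked it. Probes well above background on 2 or more arrays were tested, and a probe was said to have risen or fallen at a limma adjusted p under 0.05 over all 33976 probes tested. Of the members, 68 probes of 45 genes were tested. Of the other 12 probes, 11 were below background on every array, and 1 probe of Ttn was above it only on the untreated array, where its spot had been marked as an outlier.

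Across the members, 29 probes of 20 genes fell with BMP2 and 3 probes of 2 genes rose in limma. Over all probes tested, 6.19% were called lower, 5.76% higher and 11.9% in either direction. The median BMP2 effect was -0.48 over the 68 member probes and 0.02 over all tested probes. A member that was above background only without BMP2 could pass the filter only by being lower with it, so neither the counts nor the medians are a test of the list. With no filter on dim probes limma called none of 55664 probes, members included. An unadjusted limma p under 0.05 was reached by 46 of 79 member probes and by 11949 of the 55664. Less RNA per cell and fewer cells of a type cannot be told apart in such bulk cultures.

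The 6 skeletal muscle myosin heavy chain genes lie in a row on chromosome 11 and resemble each other closely, so the values of each probe are given. The 60-base probes below are given from 5′ to 3′. They lie at different places in their transcripts, so how little they match cannot show how far the transcripts differ. The first Myh8 probe and the Myh3 probe both lie toward the 3′ end, in the tail, and capitals mark the longest run that they share, of 7 bases. For Myh1, Myh2 and Myh4 the first 30 bases are given.
Myh8, base 5937 of its transcript: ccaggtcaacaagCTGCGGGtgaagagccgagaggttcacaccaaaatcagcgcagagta
Myh3, base 5779: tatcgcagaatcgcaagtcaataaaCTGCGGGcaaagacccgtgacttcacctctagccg
Myh8, base 477: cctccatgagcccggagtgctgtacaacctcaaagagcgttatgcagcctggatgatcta
Myh13, base 5510: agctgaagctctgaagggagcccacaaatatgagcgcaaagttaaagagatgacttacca
Myh1, base 5943: gatgagcaaaatgtgaagatctttgtcact
Myh2, base 6023: tgattctattccatcctgttgtaaggaaat
Myh4, base 5901: gaagaataatccatctttctgttgagaggt

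These probes are not copies of one another. Among all 20 myosin heavy chain probes, the best ungapped match in 190 pairs was 29 identical bases over an overlap of 48, between the Myh3 and Myh8 tail probes shown. That match is between probes and not between a probe and another gene's full transcript, which was not used here, so a probe could still read a related transcript.

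Probes of the adult heavy chains Myh1, Myh2, Myh4 and Myh13 read higher without BMP2 than with it, and only that of Myh1 was bright. Myh1, a heavy chain of adult fast fibres, read 3175 untreated, 2799 after LOXL2, 100.7 after BMP2 and 85.02 after both proteins. Sets of 4 values below keep this order. The groups with and without BMP2 were far apart, and Myh1 fell by 5.01 ± 0.06, a 32.2-fold difference (limma adjusted p = 0.0298, the smallest value that any probe reached). With normexp background correction, which adds an offset of 50 and draws dim values together, the effect was -4.32. Its probe lies on mm9 at chr11:67038002-67038061.

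Myh8, the perinatal heavy chain, has 4 probes that did not read alike. Its tail probe at chr11:67121925-67121984 read 3987, 3142, 131.6 and 124.5 and fell by 4.79 ± 0.10 (limma adjusted p = 0.0298). The probe near the start of the transcript, at chr11:67093475-67093534, read 49.07 and 39.8 without BMP2 and was not well above background on either array with it, which makes it at least 4.24-fold lower (limma adjusted p = 0.0298). A probe placed by an Ensembl transcript at chr11:67095524-67095583 read 369.5, 370.3, 236.2 and 224.1 and fell by 0.69 ± 0.06 (limma adjusted p = 0.0388), while another Ensembl-placed probe was below background on every array. The direction was the same for each Myh8 probe with signal, and the size ran from -0.69 to -4.79.

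The probes of the 3 remaining adult genes were not well above background on either array with BMP2. Myh2, a heavy chain of fast oxidative fibres, read 73.05 and 71.07 without BMP2 and was at least 6.91-fold lower with it (limma adjusted p = 0.0298). Myh4, of the fastest fibres, read 69.98 and 71.2 and was at least 6.72-fold lower, with a fitted effect of -3.62 ± 0.57 that missed the threshold (limma adjusted p = 0.0615). Myh13, known from the muscles of the eye, read 30.3 and 29.18 and was at least 2.85-fold lower (limma adjusted p = 0.0298). These bounds use the lowest signal of any probe well above background, so they can be too high. They also hold only for the background correction used: with normexp the effects were smaller, at -1.16 for Myh2, -1.02 for Myh4, -0.47 for Myh13 and -0.76 for the dim Myh8 probe. All 4 were called lower with it (limma adjusted p = 0.000321 to 0.00343).

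Myh3, the embryonic heavy chain at the end of the same row, was not called. Its tail probe read 74.81, 68.71, 89.44 and 106.6, and its other probe read 145.6, 129.0, 171.8 and 197.2. Both probes were thus somewhat higher on the arrays with BMP2, with effects of 0.45 ± 0.13 and 0.43 ± 0.13 that did not pass (limma adjusted p = 0.124 and 0.131). With normexp they were 0.29 and 0.30 and passed (limma adjusted p = 0.0314 and 0.0425). From the Myh3 to the Myh13 probe the row spans 268 kb (mm9, chr11:66915107-67182710), and 5 of its 6 genes had a probe at least 2-fold lower with BMP2 in both pairs of arrays.

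**Figure D1:**
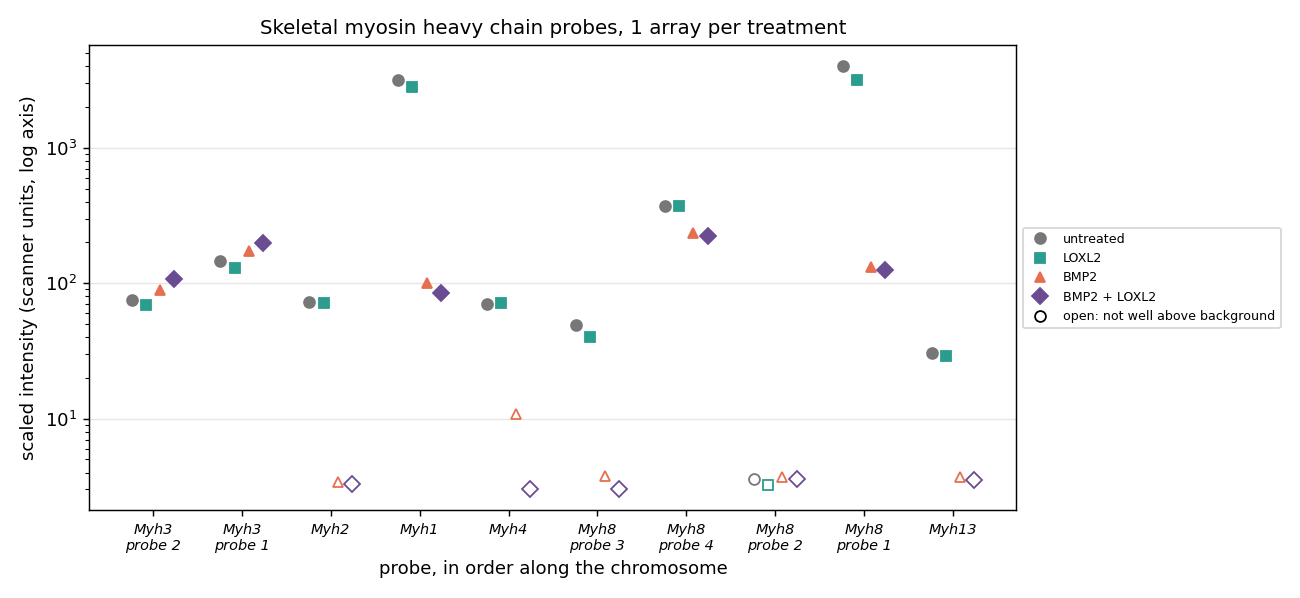
Scaled intensity (scanner units, log axis) of the 10 probes of the 6 skeletal myosin heavy chain genes, in chromosome order, with 1 point per array and open points where the probe was not well above background. Myh1 and Myh8 probe 1 lie at 2799 to 3987 without BMP2 and at 85.02 to 131.6 with it, while both Myh3 probes lie between 68.71 and 197.2.

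Outside the heavy chains and Acta1, no skeletal probe was called lower. Of 23 tested probes in the skeletal group, 7 fell and 2 rose, and the 7 were the 6 myosin heavy chain probes called above and the probe of Acta1. Over all tested probes 6.19% were called lower and 5.76% higher. Myh2, Myh13 and the dim Myh8 probe were above background only without BMP2, so they could pass the filter only by being lower with it. Skeletal alpha-actin, Acta1, read 16840, 16040, 7344 and 6894. The groups did not overlap, and Acta1 fell by 1.21 ± 0.06 (limma adjusted p = 0.0298).

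Troponins are the calcium switch of the sarcomere, and none of the skeletal ones passed the test with the main settings. Tnnt3, the tropomyosin-binding subunit of fast fibres, read 545.3, 522.9, 299.1 and 345.4 at its brighter probe, with effects of -0.73 ± 0.10 and -0.50 ± 0.07 at its probes (limma adjusted p = 0.0543 and 0.054). Tnni2, the inhibitory subunit of the same fibres, went the other way with 600.7, 611.2, 856.0 and 1077 and an effect of 0.66 ± 0.11 (limma adjusted p = 0.0641). The brighter Tnnt3 probe and Tnni2 passed with normexp (limma adjusted p = 0.00441 and 0.0065). They also passed with a filter on all 4 arrays (limma adjusted p = 0.0336 and 0.0418), but not with quantile normalization or median centring. The calcium-binding Tnnc2 read 270.3, 333.2, 316.7 and 364.2, and the slow-fibre Tnnt1 read 1898, 1977, 1830 and 1884 at its brighter probe. The groups overlapped in Tnnc2, and in Tnnt1 both arrays with BMP2 were slightly the lower ones (effect -0.06, limma adjusted p = 0.494).

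Chrna1, a subunit of the acetylcholine receptor at the nerve-muscle junction, was the only skeletal member that rose. One of its probes read 287.1, 257.2, 473.6 and 444.0 and rose by 0.75 ± 0.06, and the other read 35.84, 25.67, 99.46 and 107.2 and rose by 1.77 ± 0.19 (limma adjusted p = 0.0367 and 0.0438). Both arrays with BMP2 lay above both without it at each probe, and with normexp the effect of the second was 0.84.

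Myod1 and Myog, the transcription factors that start muscle differentiation, were dim. The lowest signal of any probe well above background was 10.2 to 14.2 on the arrays. Some brighter probes, such as Lmod1 at 17.66 with BMP2, still did not count as well above background. The Myod1 probe averaged 20.13, 21.66, 22.87 and 20.52 over its 10 spots, with the groups overlapping. Myog averaged 25.63, 21.23, 23.54 and 36.34, highest with both proteins, where its spots ran from 24.6 to 47.3 against 15.2 to 34.3 over the other arrays. Its BMP2 difference was -0.12 without LOXL2 and 0.78 with it, which has no test. Ckm, muscle creatine kinase, and Casq1, the calcium store protein of fast fibres, were below background on every array. Myl1, a fast myosin light chain, read 218.2, 261.2, 256.4 and 270.4 at the probe with signal everywhere, an effect of 0.14 (limma adjusted p = 0.301).

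Cardiac and slow muscle isoforms were mostly dim. Of 9 tested probes, 2 fell and none rose in limma, while 6 had an unadjusted p under 0.05. Over all 33976 tested probes 6.19% were called lower, 5.76% were called higher and 13257 had such an unadjusted limma p. Myl4, the embryonic and atrial light chain, read 1653, 1756, 1187 and 1222 and fell by 0.50 ± 0.06 (limma adjusted p = 0.0472). Cardiac troponin I, Tnni3, read 27.86, 29.96, 15.14 and 18.38 and fell by 0.79 ± 0.08 (limma adjusted p = 0.0413), a call lost with normexp background correction (effect -0.17, limma adjusted p = 0.0707). In both genes the arrays with BMP2 were the lower ones.

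Myh7, the slow and cardiac beta heavy chain, read 128.9, 125.5, 172.0 and 173.9, an effect of 0.44 ± 0.06 that just missed the threshold (limma adjusted p = 0.0533). This effect passed with median centring and with normexp (limma adjusted p = 0.0473 and 0.0155) and missed with quantile normalization (limma adjusted p = 0.0542). Its cardiac neighbour Myh6 read 32.53, 28.39, 24.49 and 24.37 at the probe with signal, lower with BMP2 and not called (limma adjusted p = 0.107). Cardiac actin, Actc1, read 147.1, 225.7, 144.6 and 222.5, an effect of BMP2 of -0.02 (limma adjusted p = 0.797), and its higher arrays were those with LOXL2.

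The remaining cardiac members were not called. Myl3, a slow and ventricular light chain, read 266.6, 271.7, 317.1 and 350.0, and the ventricular Myl2 read 37.08, 44.44, 31.85 and 31.06 at the probe with signal. Cardiac troponin T, Tnnt2, read 44.63, 68.27, 71.12 and 65.91, and the calcium-binding Tnnc1 read 48.75, 35.99, 44.1 and 56.0, both with overlapping groups. Their limma adjusted p ran from 0.0869 for Myl3 to 0.518 for Tnnc1. Myl7 of the atrium and Casq2, the calcium store protein of the heart, were below background throughout.

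All 8 smooth muscle genes fell with BMP2 at 1 or more probes. In the limma fit 8 of 9 probes fell, the median effect over the probes was -1.03 and single probes ran from -0.38 to -2.46. As part of a list chosen with these values known, that count is no independent evidence of direction. Of all tested probes, 6.19% were called lower and 5.76% higher. Smooth muscle actin, Acta2, the usual mark of smooth muscle and of activated fibroblasts, averaged 174800, 167400, 86260 and 80820. Its 10 spots per array ran from 161000 to 183000 without BMP2 and from 77400 to 89900 with it, without overlap, and Acta2 fell by 1.03 ± 0.06 (limma adjusted p = 0.0311).

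Transgelin, Tagln, an actin-binding protein of smooth muscle, read 170500, 162300, 84170 and 79410 and fell by 1.03 ± 0.06. Calponin, Cnn1, which damps actomyosin, read 23540, 24920, 10380 and 10710 and fell by 1.20 ± 0.06. The enteric actin Actg2 read 5745, 5930, 2761 and 2950 and fell by 1.03 ± 0.06. Adjusted p in limma was 0.0298 to 0.0314 for these 3 genes, and each had both arrays with BMP2 well below both without it.

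The regulatory light chain Myl9, which the myosin light chain kinase phosphorylates to start contraction, read 108200, 107600, 56950 and 55380 and fell by 0.94 ± 0.06 (limma adjusted p = 0.0324). Mylk, that kinase, read 530.9, 538.9, 267.2 and 251.2 at its 3′ probe and fell by 1.05 ± 0.07 (limma adjusted p = 0.0331). Its other probe, placed by an Ensembl transcript, read 207.8, 184.3, 162.3 and 139.8 and was not called (effect -0.38, limma adjusted p = 0.0605). The smooth muscle heavy chain Myh11 read 53.32 and 63.51 without BMP2, was not well above background with it and was at least 5.39-fold lower (limma adjusted p = 0.0298). Leiomodin, Lmod1, which nucleates actin filaments, read 35.7 and 42.09 and was at least 2.23-fold lower (limma adjusted p = 0.0384). With normexp the effects were smaller than these bounds, at -0.73 for Myh11 and -0.36 for Lmod1, and both were still called (limma adjusted p = 0.00121 and 0.011).

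**Figure D2:**
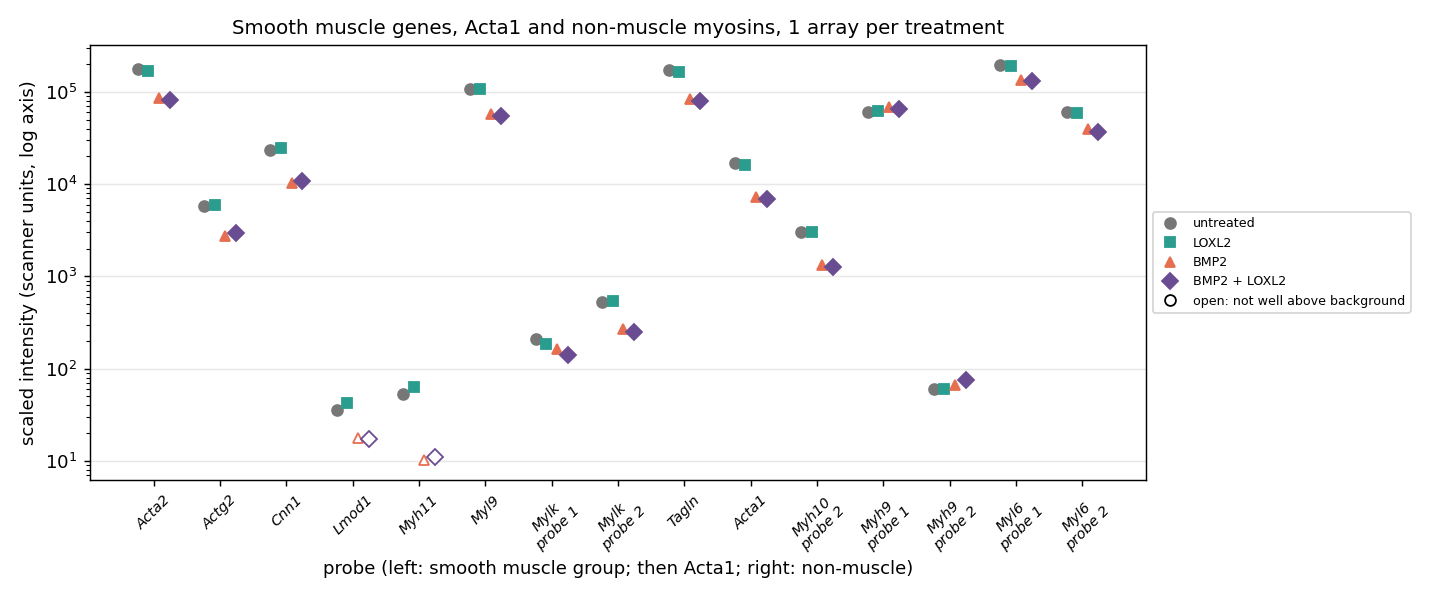
Scaled intensity (scanner units, log axis) of the smooth muscle probes, Acta1 and the non-muscle myosins Myh9, Myh10 and Myl6, with 1 point per array and open points where the probe was not well above background. In the smooth muscle group and Acta1 both BMP2 arrays lie below both arrays without BMP2, as in Myh10 and Myl6, while for Myh9 they lie slightly above.

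Of the tropomyosins, the rods that line actin filaments, 7 of 12 probes were called lower and none higher in limma, all 7 from Tpm1 and Tpm2. Over all tested probes the shares were 6.19% lower and 5.76% higher. Tpm1 is known to make muscle and non-muscle forms that end in different exons. Tpm1 has 6 probes on mm9 between chr9:66871166 and chr9:66880333, on the minus strand, and 5 of them fell, with effects from -1.58 to -1.37. The probe nearest the 3′ end, at chr9:66871166-66871225, read 18150, 16230, 6819 and 6486 and fell by 1.37 ± 0.06 (limma adjusted p = 0.0298). The remaining probe, at chr9:66872131-66872190 read 6089, 5487, 5455 and 5429, an effect of -0.09 (limma adjusted p = 0.445). It lies between probes that fell.

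Tpm2, a muscle and fibroblast tropomyosin, read 25380, 24710, 15600 and 14180 at its brighter probe and fell by 0.75 ± 0.06 (limma adjusted p = 0.0379). The other Tpm2 probe fell by 0.71 ± 0.06 (limma adjusted p = 0.0382). Tpm3 and Tpm4, which most cells make, were not called. Tpm3 read 81620, 77650, 71590 and 64890 at its brightest probe (effect -0.22, limma adjusted p = 0.114), and Tpm4 read 74920, 66860, 53280 and 49340 (effect -0.47, limma adjusted p = 0.0512). A Tpm3 probe near the 5′ end, printed on 1 spot, read 109.0 untreated and 15.99 with LOXL2 and was below background with BMP2. Its bound of at least 3.71-fold lower with BMP2 averages both pairs of arrays and rests largely on the 1 untreated spot. In the pair with LOXL2, 15.99 stood against a lowest signal well above background of 10.2 on the array with both proteins. The effect of this probe was not called (limma adjusted p = 0.0517). With normexp the effect was -0.76, short of that bound.

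**Figure D3:**
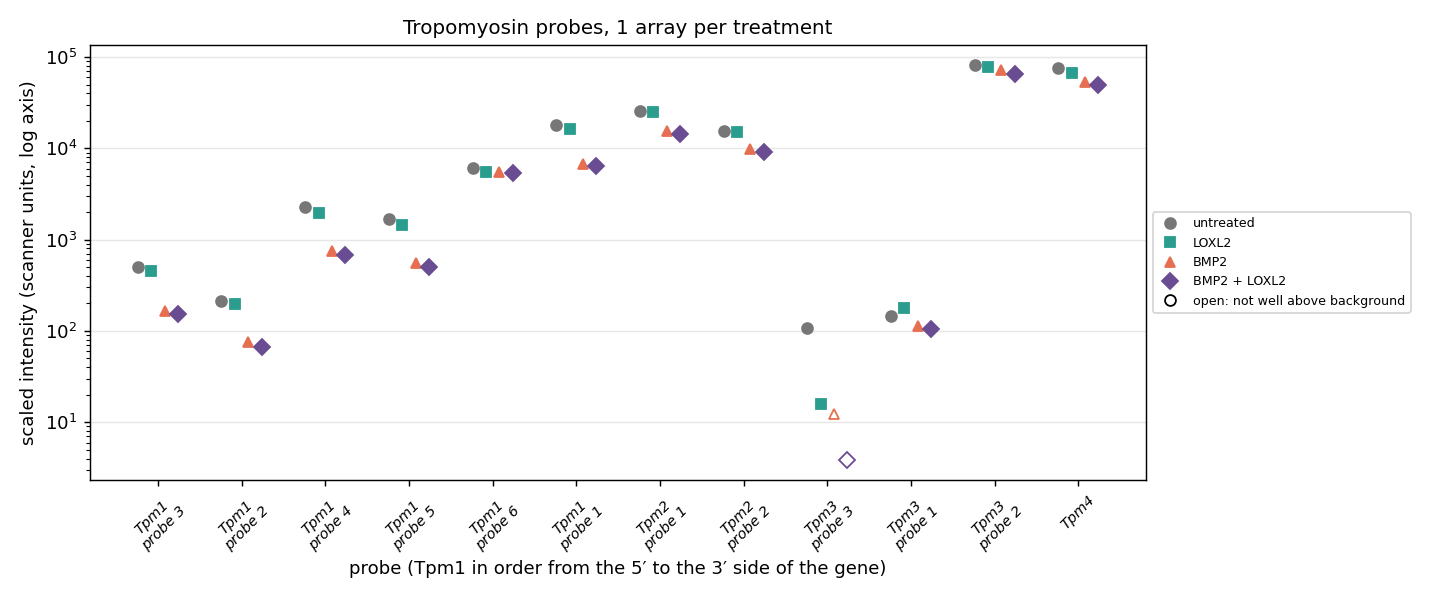
Scaled intensity (scanner units, log axis) of the 12 tropomyosin probes, with 1 point per array and open points where the probe was not well above background. For Tpm1, drawn from the 5′ to the 3′ side, 5 probes are lower with BMP2 and probe 6 lies between 5429 and 6089.

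Of the non-muscle heavy chains only Myh10 was called. Myh10, non-muscle myosin IIB, read 3021, 3033, 1340 and 1258 and fell by 1.22 ± 0.06 (limma adjusted p = 0.0309). Myh9, non-muscle myosin IIA, read 59740, 62410, 68130 and 64880 at its brighter probe, a difference of 0.12 ± 0.07 (limma adjusted p = 0.305) whose sign turned with quantile normalization (-0.05). Myh14, the third of these paralogs, read 376.0, 364.0, 353.0 and 375.4, with overlapping groups. Whether Myh10 and Myh9 differ in response was not tested, and their BMP2 differences were -1.17 and 0.19 without LOXL2 and -1.27 and 0.06 with it.

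The essential light chain Myl6, shared by smooth muscle and other cells, read 195000, 189100, 134500 and 131300 and fell by 0.53 ± 0.06 (limma adjusted p = 0.0439). Calponin 2, Cnn2, read 24220, 22470, 13670 and 11820 and fell by 0.88 ± 0.06 (limma adjusted p = 0.0356). Calponin 3, Cnn3, read 59010, 56510, 47450 and 46000 at its brightest probe and was not called (effect -0.31, limma adjusted p = 0.0731). Its dimmest probe lies on the strand opposite to the gene and read 164.3, 138.3, 116.0 and 113.1.

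Transgelin 2, Tagln2, a relative of Tagln made by many cells, was the other gene that rose. Its dimmer probe read 3377, 3101, 4768 and 4577 and rose by 0.53 ± 0.06 (limma adjusted p = 0.0459), a call lost with quantile normalization (limma adjusted p = 0.0539). Its brighter probe read 47450, 42970, 63020 and 65930, an effect of 0.51 ± 0.09 (limma adjusted p = 0.0646). Both arrays with BMP2 were the higher ones at each probe. Desmin, Des, the intermediate filament of all muscle types, averaged 53.26, 52.52, 42.0 and 46.13 over 10 spots and was not called (effect -0.26, limma adjusted p = 0.119). Titin, Ttn, the giant spring of the sarcomere, gave no usable signal at its 4 probes.

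The BMP2 difference was read separately without LOXL2 and with LOXL2, in pairs that share no array and carry no test. At least 2-fold lower in both pairs were 20 of the 68 member probes, and 1, of Chrna1, was at least 2-fold higher. Over all tested probes 2.65% were lower, 1.82% higher and 4.47% either by this rule. The 20 comprised 7 skeletal, 6 smooth muscle, 6 tropomyosin and 1 non-muscle probe, and no cardiac probe. Myh2, Myh4, Myh13, the dim Myh8 probe, Myh11, Lmod1 and the 5′ Tpm3 probe were not well above background on either array with BMP2. Their differences rest on dim values, such as 15.99 against 3.859 for Tpm3 in the pair with LOXL2. Myl9 lay just outside, with differences of -0.93 and -0.96, as did the 3′ probe of Mylk, with -0.99 and -1.10, while Actg2 lay just inside with -1.06 and -1.01. For Myh4 the differences were -2.69 and -4.55, but both arrays with BMP2 were below background, so these sizes have no order.

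**Figure D4:**
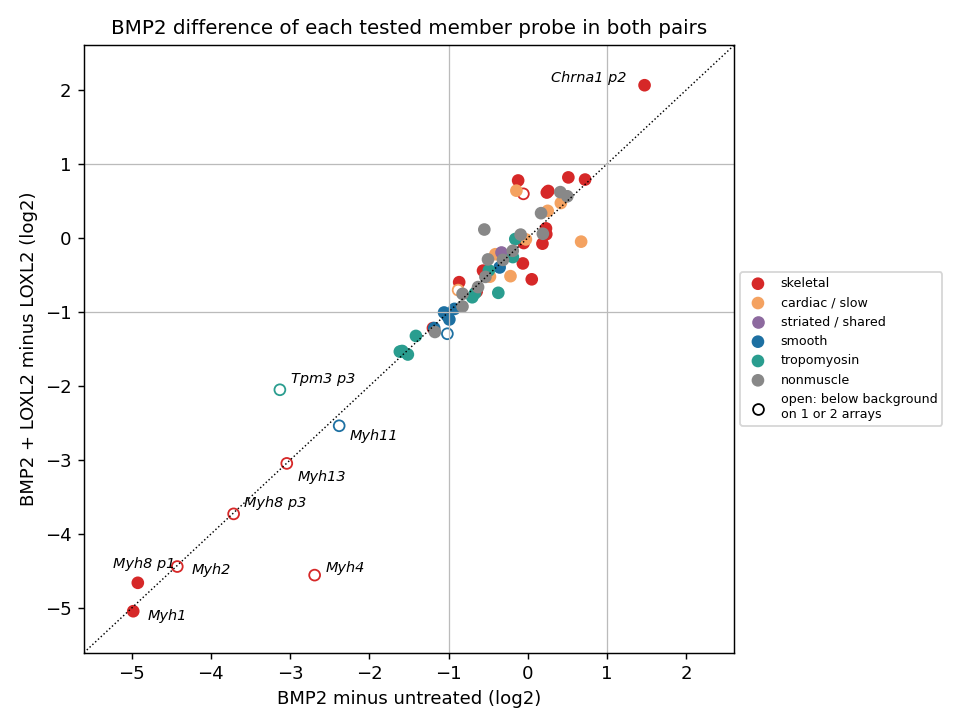
BMP2 difference (log2) of each of the 68 tested member probes without LOXL2 (horizontal) and with LOXL2 (vertical), coloured by group, with grey lines at 2-fold, a dotted line of equality and open points for probes below background on 1 or 2 arrays. Most probes lie near the line of equality, with the heavy chains Myh1, Myh8 and Myh2 at the lower left and Chrna1 at the upper right.

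None of the 68 member probes was called with LOXL2 in limma, the smallest adjusted p over all probes being 0.751, and 0% of all tested probes passed. An unadjusted limma p under 0.05 was reached by 7 of the 68 and by 1954 of all 33976 tested probes. The eBayes fit with trend and robust settings called 3 of the 68, and 71 of all 33976 tested probes. Fitted LOXL2 effects had a median of -0.04 over the members.

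The probes at least 1.5-fold different with LOXL2 in both pairs were 3, against 0.497% of all tested probes (0.253% higher and 0.244% lower), with no test. Actc1 was the 1 that was higher, by 0.62 without BMP2 and 0.62 with it, and its values stand above. Lower were the 5′ probe of Tpm3 described above and a dim Myl1 probe, which read 38.32, 7.841, 36.85 and 11.84. The lower values, on the LOXL2 arrays, were below background, and the brighter Myl1 probe differed by 0.26 and 0.08. Tnni1, the slow inhibitory troponin, read 31.53, 71.85, 32.63 and 48.76, higher with LOXL2 in both pairs by 1.19 and 0.58, just outside the rule.

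**Figure D5:**
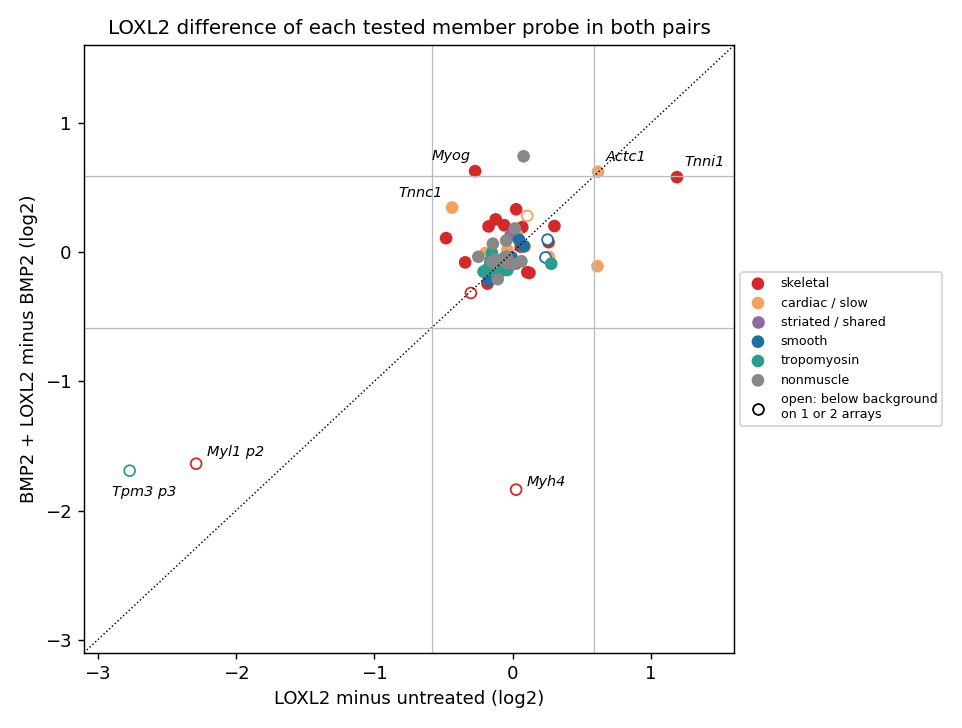
LOXL2 difference (log2) of each of the 68 tested member probes without BMP2 (horizontal) and with BMP2 (vertical), coloured by group, with grey lines at 1.5-fold, a dotted line of equality and open points for probes below background on 1 or 2 arrays. The points gather around 0, with Actc1 and Tnni1 to the upper right and the dim probes of Tpm3 and Myl1 to the lower left.

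Other genes of the contractile apparatus were followed at the brightest tested probe of each gene. Of 19 tested genes of the sarcomere and Z-disc, 6 fell and none rose in limma, with a median of -0.05. Ankrd1, a stretch-responsive titin partner, read 969.0, 880.9, 141.1 and 127.2 and fell by 2.79 ± 0.06 (limma adjusted p = 0.0298). The M-band protein Myom2 fell by 1.29 (limma adjusted p = 0.0338). The filament-capping Tmod1 was not well above background with BMP2 and was at least 2.52-fold lower (limma adjusted p = 0.0324). The fast light chain Mylpf and the filament ruler Neb were below background on every array.

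In the list of serum response factor and actomyosin genes, 5 of 32 fell and none rose in limma, with a median of -0.24. The 5 were Synpo2, an actin-bundling protein of smooth muscle that fell by 1.55, Ppp1r14a, an inhibitor of myosin phosphatase, by 0.92, the adhesion protein Vcl by 0.57, the cysteine-rich protein Csrp1 by 0.55 and the cofactor Mkl1 by 0.46 (limma adjusted p = 0.0298 to 0.0494). The factor itself, Srf, read 3310, 3214, 2750 and 2712 with an effect of -0.26 that was not called (limma adjusted p = 0.09). Myocd, its smooth muscle cofactor, read 89.41, 79.94, 32.51 and 43.15, an effect of -1.17 ± 0.18 that was not called (limma adjusted p = 0.0608). Mkl1 as the fifth, Srf and Myocd were named after their values were seen.

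Of 12 tested genes of calcium handling and muscle energy supply, 2 fell and 1 rose in limma, with a median of -0.07. The muscle enolase Eno3 fell by 1.87 ± 0.07 and the junctional protein Jph2 by 1.01 ± 0.06, while the striated muscle oxidase subunit Cox6a2 read 467.5, 767.3, 3104 and 3229 and rose by 2.40 ± 0.21. Adjusted p in limma was 0.0298 to 0.0381 for these 3 genes. Among 9 tested myogenic regulators and junction genes, Six4, a homeobox factor, fell by 0.62 (limma adjusted p = 0.0435), none rose, and Myf5, Myf6 and Msc were below background throughout. These shares count genes at their brightest tested probe, while 6.19% of all tested probes were called lower and 5.76% higher. Of all 23906 tested genes, 1788 had a probe called lower and 1684 a probe called higher. Neither background counts only the brightest probe of each gene, so the shares are a description and no test.

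Markers of osteoblasts and of other cell types moved on the same arrays. Of the 7 osteoblast markers, Ibsp rose by 2.53, Sp7 by 2.23 and Alpl by 1.87 (limma adjusted p = 0.0298 to 0.0345), the other 4 were not called, and the summed scaled intensity was 802500 to 805700 without BMP2 and 775200 to 814000 with it. Such sums follow the brightest probes of a list. All 5 chondrocyte markers rose in limma, and their summed scaled intensity was 30740 to 36220 without BMP2 and 134600 to 210600 with it. Of 5 tested pericyte and vascular smooth muscle markers 1 rose and none fell, the sum was 22660 to 23650 without BMP2 and 32800 to 35000 with it, mostly from Mcam, and Myocd went the other way with an effect of -1.17 that was not called. The other tested markers of that list had effects of 1.24 for Cspg4, which was called, and 1.18 for Rgs5, 0.44 for Notch3 and 0.42 for Mcam. Those of Rgs5, Notch3 and Mcam were not called, and Kcnj8 and Abcc9 were below background on every array. Among the satellite cell and myoblast markers 3 of 6 were tested and none was called, with a sum of 115.1 to 123.5 without BMP2 and 124.0 to 134.1 with it, and Myf5 and Msc were below background throughout. That list shares Myog and Myod1 with the members. Macrophage markers had 1 of 6 lower and a sum of 8050 to 8638 against 6649 to 6831. Of 4 tested endothelial markers 1 was lower, with sums of 22300 to 22960 against 21540 to 22590 that are nearly all Kdr (effect -0.03). The other endothelial effects were -0.72 for Cdh5, which was called, and -0.40 for Pecam1 and -1.39 for Tek, which were not. Of 3 tested cardiomyocyte markers 1 was lower, with 157.5 to 173.7 against 121.9 to 132.6, Gata4, Tbx5 and Hcn4 being below background on every array. The part of any of these cells in the contractile values was not tested.

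Promoter sequences show which members carry the CArG box, the site of serum response factor. They were searched after many members had been called in the same direction, and are printed only as a description. The members were picked by name and include well-known targets of this factor. The share with a box is therefore no test, and a part of the factor in these values was not tested. The window ran from 250 bases before to 50 bases after each gene start in RefSeq's table (GRCm38.p6), and 44 of the 50 members were in it. The pattern reads the same on both strands. Actg2, Myh11, Myod1, Tagln, Tnni2 and Tnnt3 had no entry. It was found for 9 of 44 member genes (20.5%) and for 1.81% of all 27025 genes, or 1.63% of all 32851 windows. Among members with a called fall it was found for 5 of 17, and among tested members with no call for 3 of 20. The sequences that follow show 7 of the 9 boxes, in capitals, first for 4 members that fell and then for Actc1, Myl3 and Myh4, which were not called. Those of Myh13, which fell and has its box 22 bases after the start, and of Myl7, which was not tested, are not printed.
Acta1, chr8:123894824-123894873, minus strand: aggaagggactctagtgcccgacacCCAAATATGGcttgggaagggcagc
Cnn2, chr10:79988519-79988568, plus strand: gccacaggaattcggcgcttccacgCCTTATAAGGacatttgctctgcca
Myl6, chr10:128493035-128493084, minus strand: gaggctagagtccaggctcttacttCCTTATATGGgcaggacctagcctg
Myl9, chr2:156775278-156775327, plus strand: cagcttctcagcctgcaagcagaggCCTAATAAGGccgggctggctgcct
Actc1, chr2:114052898-114052947, minus strand: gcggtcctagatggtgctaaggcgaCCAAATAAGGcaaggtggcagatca
Myl3, chr9:110763568-110763617, plus strand: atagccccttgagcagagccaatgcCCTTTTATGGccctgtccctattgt
Myh4, chr11:67237683-67237732, plus strand: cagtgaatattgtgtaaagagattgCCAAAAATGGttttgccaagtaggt

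The box was thus found for members that fell, such as Acta1 with an effect of -1.21 and Myl9 with -0.94. It was also found for the 3 that were not called, whose effects were -0.02 for Actc1, 0.31 for Myl3 and -3.62 for Myh4, which was below background with BMP2. It started 73 bases before the gene start of Acta1 and 47 bases before that of Actc1. No box was found in the window of Acta2, Cnn1 or Tpm1, which says only that these letters are not in that window. A match is a description of sequence and not evidence of binding.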

How the data were processed

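The authors deposited Agilent Feature Extraction files (version 10.7.3.1, per the submitters' processing notes) with an intensity per spot, and a value table. Per the file headers, a fitted spatial surface was subtracted, signals were detrended and surrogate values were enabled for dim spots. The deposited table holds intensity per probe, within 0.1% of the mean processed signal for 99.52% to 99.53% of probes.

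Here log2 processed signals minus each array's 75th percentile over 59305 non-control spots were averaged per probe, without 109 to 144 outlier spots per array. A probe counted as above background where at least 50% of its spots were. The additive model was fitted with limma 3.58.1 under R 4.3.3 (the data.table package at version 1.17.8), with 1 residual degree of freedom, the interaction, plus 1.69 from empirical Bayes. Tests were two-sided, with Benjamini-Hochberg adjustment over 33976 probes, and the fit was tested on simulated data. "At least N-fold" takes, on each array of the dim arm, the higher of the probe's value and the lowest signal well above background. That lowest signal is taken over all probes and is not a limit for each probe. Lmod1 at 17.66 with BMP2 lay above it and was not well above background, so a bound can be too high. Scaled intensities were multiplied by the geometric mean of the 75th percentiles. Positions are mm9, per the file headers. The accessions of 70 of 80 member probes were in the RefSeq table and gave the same symbol.

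The members and gene lists were chosen with earlier results of these data known. All members were named, and in the other lists the 4 called genes with the largest effects, of which 1 is not reported here. P-values set an effect against the departure of the 4 arrays from the additive model, moderated over probes, and not against a spread between cultures. Alternatives were quantile normalization, median centring, normexp background correction, no filter, a filter on all 4 arrays, the deposited values, 1 probe for each gene, and eBayes with trend and robust settings.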

Additional observations from a re-analysis of the deposited data

Results flagged for a closer look

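Tnnc1, the calcium-binding troponin of slow and cardiac muscle, was singled out because its LOXL2 differences had opposite signs without and with BMP2. It read 48.75 untreated, 35.99 after LOXL2, 44.1 after BMP2 and 56.0 after both. The LOXL2 difference was -0.44 without BMP2 and 0.34 with it, a difference of 0.78 that was not tested. The probe was printed on 1 spot. A minimum size was asked of both differences, and that size was chosen after the data were seen.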

How the results depend on the processing

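The count of member probes called with BMP2 was 32, and it stayed between 25 and 47 outside the settings named next. With no filter on dim probes limma called 0 of the members and 0 of all probes. There 46 of 79 member probes and 11949 of all 55664 had an unadjusted limma p under 0.05. With eBayes under trend and robust settings and the filter kept, the count was 50. Over all probes 4060 were called, against 11584 with normexp, 6943 with a filter on all 4 arrays and 13738 with trend and robust eBayes. The count for LOXL2 was 0, and 3 with trend and robust eBayes, where 71 of all 33976 tested probes were called. The 3 probes 1.5-fold different in both LOXL2 pairs became 0 with normexp, 1 with a filter on all 4 arrays and 1 with 1 probe per gene. The sign of small uncalled BMP2 effects turned for Actc1 (0.0277) and the brighter Myh14 probe (0.0268) with median centring, for Myh9 (-0.0527) with quantile normalization, and for the dim Myl1 probe (-0.0137) and Myod1 (-0.0079) with normexp. For Myod1 it also turned with the deposited table (-0.0105). The cause was not tested beyond the construction of each setting. Normexp brought the folds of the dim heavy chains and of Lmod1 below the bounds given and ended the call of Tnni3. Quantile normalization ended that of Tagln2. Calls were gained by 16 member probes with normexp, 7 with a filter on all 4 arrays and 18 with trend and robust eBayes. No paired analysis was possible because each treatment had 1 array and the labels give no shared replicate numbers. The additive model does compare BMP2 within each LOXL2 state. No replicate could be left out. Signal over background limits Myh2, Myh4, Myh13 and the Myh8 probe near the start of the transcript to lower bounds. The Ensembl-placed Myh8 probe with signal on every array had a fitted effect of -0.69.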

Other observations

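Other probes between Myh3 and Myh13 on chromosome 11, and next to them, were read as well. The noncoding 2310065F04Rik, on the opposite strand between Myh3 and Myh2, read 125.5, 118.6, 83.29 and 74.15 in the order untreated, LOXL2, BMP2 and both, an effect of -0.63 ± 0.06 (limma adjusted p = 0.0413). Sco1, a copper chaperone of mitochondria upstream of Myh3, had effects of 0.17 and 0.30 at its probes, neither called (limma adjusted p = 0.363 and 0.161). Tmem220, farther out on that side, had effects of -0.49 and -0.32, neither called (limma adjusted p = 0.0512 and 0.0693).

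The Ttn probe at base 2094 of its transcript was below background on 3 arrays, and its untreated spot had been marked as an outlier. Casq1 was below background on every array, with values of 3.611 and 3.32 without BMP2 and 13.2 and 10.69 with it.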
